A study of Arabidopsis thaliana with 8 samples.

Results

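The comparison is between 2 mutant alleles of HDA6, hda6-10 and hda6-9, both in the ros1-1 mutant background of Arabidopsis thaliana ecotype C24, and asks which transcripts separate one allele from the other. It rests on 4 of the 8 arrays of the series, 2 of ros1-1 hda6-10 and 2 of ros1-1 hda6-9, with all 43603 non-control probes. The remaining 4 arrays, 2 of ros1-1 and 2 of the C24 wild type, served to estimate the spread and for reference levels. All plants were 12-day-old seedlings grown on plates of MS medium with sucrose under a long-day light cycle, and the labels state that they were kept at 4 °C for 1 day before harvest. All lines carry the reporter transgenes RD29A::LUC and 35S::NPTII, and both double mutants share the ros1-1 mutation with the ros1-1 control. Each allele is a single line from a T-DNA mutagenized ros1-1 population. In hda6-9 a T-DNA lies just before the stop codon and replaces the end of the protein. In hda6-10 a few bases are missing where exon 1 ends, which shifts the reading frame and truncates the protein ahead of most of the deacetylase domain. Other mutations that a line may carry cannot be told apart from its hda6 allele.

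HDA6 is an RPD3-type histone deacetylase. It removes acetyl groups from histones and, together with DNA methylation, keeps transposons, ribosomal RNA genes and some protein-coding genes silent. In Arabidopsis, hda6 mutants are also known for altered responses to abscisic acid (ABA), salt and cold and for altered flowering time. ROS1 is a DNA glycosylase that removes methylated cytosines, and its loss allows promoters such as that of the RD29A transgene to become silenced. In ABA signalling, PYR/PYL receptors that have bound ABA inhibit clade A PP2C phosphatases, which frees SnRK2 kinases to activate ABF transcription factors. Transcripts of many clade A PP2Cs rise when ABA accumulates.

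Between 77.2% and 80.6% of the spots of an array were well above background, none were saturated, and the correlation of arrays was 0.990 to 0.993 within a genotype and 0.979 to 0.984 between the alleles. Levels are given throughout as the log2 of the processed signal minus the array's 75th percentile, so a level of 0 is that of a fairly bright probe and levels near -10 are background. The alleles share no array slide. Both hda6-10 arrays lay on slide 1 with ros1-1 replicate 1, hda6-9 replicate 1 lay on slide 2 with ros1-1 replicate 2, and hda6-9 replicate 2 lay alone on slide 3. Photosynthesis genes such as RBCS1A were bright on all arrays, between 7.28 and 7.91. None of the 10 leaf and stomata markers, 9 root markers and 7 seed storage and oil body markers tested was called between the alleles. Of all tested genes 1.42% were higher and 0.606% lower, so lists of this size can hold no called member without standing apart. By the change alone, 3 root and 2 seed markers were more than 2-fold higher in hda6-10, where 4.3% of all tested genes were. None of the markers was more than 2-fold lower (1.64% of all). Their mean level was 2.21 and 2.12 on the hda6-10 arrays against 2.04 and 2.18 on the hda6-9 arrays for the leaf list. For the root list it was -2.44 and -2.61 against -3.55 and -2.61, and for the seed list -4.26 and -3.52 against -3.46 and -5.95. Single markers set individual arrays apart. CRA1, a seed storage protein, was at -7.26 on hda6-9 replicate 2 against -0.99 on hda6-9 replicate 1, and the root hair expansin EXPA7 was at -8.62 on hda6-9 replicate 1 against -5.67 on hda6-9 replicate 2. The seed markers CRB, SESA1 and SESA4 and the root marker NRT2.1 were not above background on both arrays of any genotype. The part of these markers in the results was not tested.

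More transcripts were higher than lower in hda6-10. Calls required both a limma p below 0.05 after Benjamini-Hochberg adjustment and a change above 2-fold. Of 35390 probes tested, 510 were higher (1.44%) and 191 were lower (0.54%) in hda6-10 than in hda6-9, together 701 (1.98%). With the p left unadjusted and the same change the counts were 1124 (3.18%) and 367 (1.04%), and by the change alone 1487 (4.2%) and 530 (1.5%). The median difference over all tested probes was -0.02 on the log2 scale. All 4 arrays of the alleles detected 360 of the higher probes, both hda6-10 arrays but neither hda6-9 array detected 111 of them, and 12 of the lower probes showed the reverse. Changes above 8-fold were found for 86 of the higher and 4 of the lower probes. With 1 probe for each of 21442 tested genes, 305 genes were higher (1.42%) and 130 lower (0.606%). By the change alone 923 genes were higher (4.3%) and 351 lower (1.64%), and the arrays of the alleles did not overlap in 5453 genes with hda6-10 higher (25.4%) and 6474 with hda6-10 lower (30.2%).

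**Figure D1:**
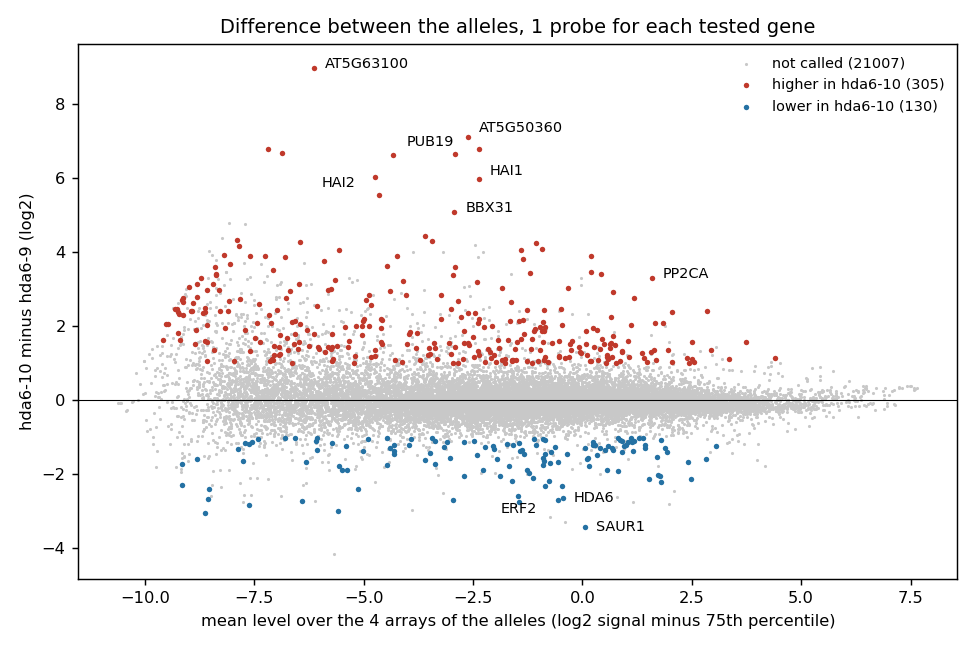
Each point is 1 of the 21442 tested genes, with its mean level over the 4 arrays of the alleles on the x axis and the log2 difference, hda6-10 minus hda6-9, on the y axis. The topmost point, AT5G63100, was at background in hda6-9, so its height is no exact difference, while AT5G50360 at 7.10 and SAUR1 at -3.42 were well above background on all 4 arrays.

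With 2 arrays for each allele, the number of calls depended on every one of them. Without hda6-10 replicate 1, 2 probes were called higher and 2 lower, and without hda6-10 replicate 2, 121 and 91. Without hda6-9 replicate 1 the counts were 16 and 8, and without hda6-9 replicate 2 they were 14 and 4. In these fits the remaining array of the allele is assumed to vary as the arrays of the other genotypes do. The calls that held without each of the 4 arrays in turn were 4 probes, namely both probes of HDA6, the probe of the gene next to it and 1 probe with no gene match. Without either ros1-1 array, 321 probes were higher and 123 lower, while without either C24 array the counts were 395 and 152. With slide as a fixed block, which links the alleles only through the ros1-1 arrays, 0 probes were called by limma after adjustment. Before adjustment 1561 passed as higher and 606 as lower. The adjusted p-values below come from limma over all 35390 probes and 8 arrays.

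HDA6 itself was lower in hda6-10 than in hda6-9. Its brighter probe was at -1.76 and -1.78 in hda6-10, 0.90 and 0.84 in hda6-9, -0.17 and -0.20 in ros1-1 and -0.31 and -0.24 in C24. Both hda6-10 arrays were below, and both hda6-9 arrays above, every array of the genotypes with an intact HDA6. The difference between the alleles was -2.64 on the log2 scale (SE 0.0714, adjusted p = 0.00042, limma), a 6.23-fold change. The dimmer HDA6 probe differed by -2.83. Within slides, hda6-10 was 1.59 and 1.61 lower than the ros1-1 array of its own slide on the brighter probe, and hda6-9 replicate 1 was 1.1 higher than its own. Where on the transcript the 2 probes lie is not given in the files, so they do not show whether the altered ends of the transcript were read.

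AT5G63100, the gene next to HDA6 in the order of genes along the chromosome, was higher in hda6-10 and had the lowest adjusted p of all named genes. It was at -1.60 and -1.72 in hda6-10, -10.8 and -10.4 in hda6-9, -1.73 and -1.54 in ros1-1 and -1.77 and -1.57 in C24. The hda6-9 arrays were not well above background, and the other 6 arrays lay within a narrow range. On the processed signal, the fold was at least 99.5 against the lowest signal well above background (adjusted p = 0.00014, limma). The gene on the other side of HDA6, AT5G63120, was at 0.57 and 0.37 in hda6-10 and 0.59 and 0.32 in hda6-9, and its groups overlapped. Among the tested genes farther along on either side, LOB (-0.18), AT5G63080 (-0.08), AT5G63070 (0.22), AT5G63135 (-0.14), AT5G63150 (-0.01), PAP29 (-0.38) and BT1 (-0.37) were not called either. AT5G63130 was 1.88 higher in hda6-10 but did not pass the test (adjusted p = 0.14, limma).

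**Figure D2:**
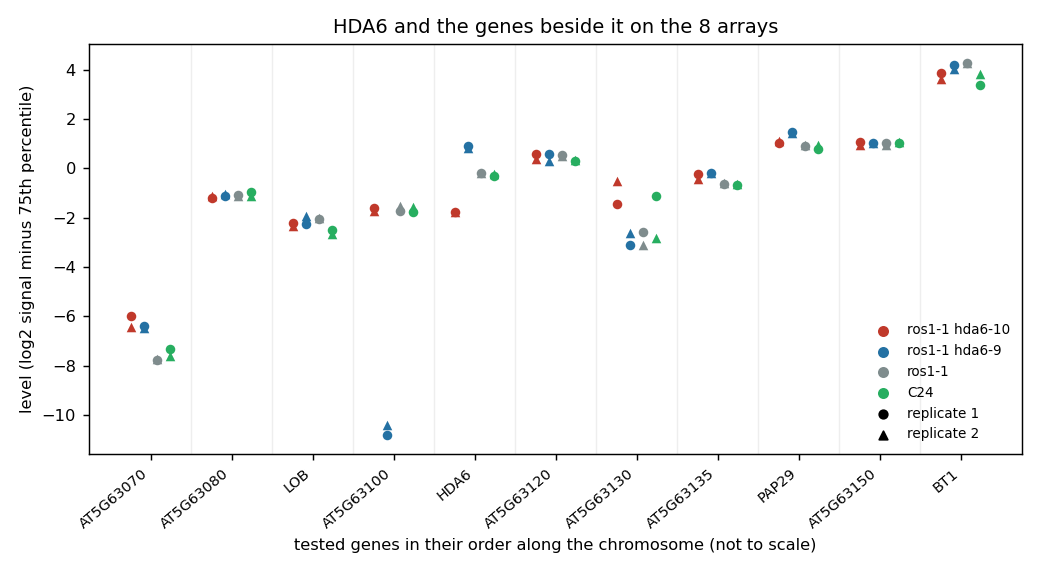
Levels of HDA6 and the tested genes beside it, in their order along the chromosome (x axis, not to scale), on each of the 8 arrays (y axis, log2 signal minus the 75th percentile). AT5G63100 is at background on both hda6-9 arrays and between -1.77 and -1.54 on the other 6, and HDA6 is lowest in hda6-10 and highest in hda6-9.

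Of the other histone deacetylases none was called, where 1.42% of all tested genes were higher and 0.606% lower. HDA7, a close relative of HDA6, was at -4.53 and -5.01 in hda6-10 and -4.64 and -4.73 in hda6-9, both above ros1-1 at -8.69 and -8.42, and the alleles overlapped. HDA9 differed by -0.17 and HDA19 by -0.08. The 10 tested members of the HDA1-type and plant-specific HD2 families had differences between -0.62 and 0.23, with HDA18 the lowest.

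The clade A PP2C phosphatases were the list with the highest share of called members. Of 8 tested, 6 were higher in hda6-10 and none lower, where 1.42% of all tested genes were higher. Their median difference was 2.64, against -0.02 over all tested genes, and in all 8 both hda6-10 arrays lay above both hda6-9 arrays, as in 25.4% of all tested genes. By the change alone 7 of the 8 were more than 2-fold higher, where 4.3% of all tested genes were. HAI1 was at 0.67 and 0.56 in hda6-10 and -5.89 and -4.84 in hda6-9. The groups lay far apart, by 5.98 (SE 0.806, adjusted p = 0.027, limma), or 63.1-fold. The ros1-1 arrays at -3.56 and -4.14 were nearer to hda6-9, and the C24 arrays at -0.03 and -2.49 spanned much of the gap. HAI2 was at -2 and -1.76 in hda6-10 against -7.56 and -7.32 in hda6-9, a difference of 5.56 (SE 0.743, adjusted p = 0.027, limma). PP2CA, another negative regulator of ABA signalling, was at 3.05 and 3.43 against -0.25 and 0.10, and its 3 probes gave differences of 3.31, 3.56 and 3.39. ABI2 (1.97), HAB1 (1.87) and ABI1 (1.57) completed the called members. HAI3 differed by 3.69 and HAB2 by 0.63 without passing the test, and AHG1 was not above background in any genotype. Without 1 array of an allele, the median of the list was between 2.32 and 2.75 and 7 members were above 2-fold, while of the 75 called genes named by rule 2 to 16 stayed called in those fits. In seedling RNA, more cells that express a gene and more of its RNA in each cell cannot be told apart.

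Among the 11 PYR/PYL receptor genes tested, 3 were lower in hda6-10 and none higher, where 0.606% of all tested genes were lower. PYL5 was at -0.05 and -0.25 in hda6-10 and 2.04 and 1.47 in hda6-9, which differed by -1.90 (SE 0.285, adjusted p = 0.033, limma). PYL6 was at -1.93 and -1.61 against 0.22 and -0.27, a difference of -1.74. PYL4 was at 0.81 and 0.79 against 2.33 and 1.82, a difference of -1.27. For all 3 the hda6-10 arrays lay below both hda6-9 and both ros1-1 arrays. PYL3 had the lowest value, -4.16, but its hda6-10 arrays were 3.13 apart and it did not pass the test. PYL7 and PYL9 lay on the other side of 0, at 0.94 and 0.62. The median of the list was -0.46, and 4 of the 11 members were above 0. Among SnRK2 kinases and the ABF and ABI factors, 1 of 10 was called higher, where 1.42% of all tested genes were. This was ABF3, at 1.35 and 1.22 in hda6-10 and -0.59 and -0.16 in hda6-9. The kinases OST1 (0.12), SNRK2.2 (0.01) and SNRK2.3 (-0.10) had differences close to 0.

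Genes that make and break down ABA were called at both ends of the pathway. NCED3, the rate-limiting enzyme of ABA synthesis under drought, was at -1.85 and -1.77 in hda6-10 and -4.73 and -4.60 in hda6-9, a difference of 2.86 (SE 0.433, adjusted p = 0.033, limma). CYP707A2 (1.65) and CYP707A1 (1.18), which inactivate ABA, were higher as well. Together 3 of the 12 tested members were higher, where 1.42% of all tested genes were. The other 9 were not called, among them ABA1, ABA2, ABA3 and AAO3 with differences between -0.17 and 0.33. A second CYP707A1 probe, with a difference of 1.00, did not pass the test.

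Of 11 transcription factors known to be induced by ABA, 6 were higher in hda6-10 and none lower, with a median of 1.51, where 1.42% of all tested genes were higher. NAC019 was at 0.29 and 0.75 in hda6-10 and -3.30 and -2.53 in hda6-9, a difference of 3.44. Its ros1-1 arrays at -0.70 and -0.35 lay between the alleles, and its C24 arrays at 2.04 and 0.69 reached above hda6-10. RD26 was at 2.23 and 2.08 against -0.93 and -0.62, and HB-12 at 2.65 and 2.46 against -0.50 and 0.07. NAC032 (2.25), HB-7 (1.51) and NAC102 (1.1) were also called, and the lowest of the 5 others was MYB73 at -0.55. Of 8 genes that attenuate the response, 5 were higher (against the same 1.42%) and none lower, with a median of 1.78. PUB19, a U-box ubiquitin ligase that restrains ABA responses, was at 0.60 and 0.24 in hda6-10 and -6.38 and -6.10 in hda6-9, a 101-fold difference (6.66, SE 0.653, adjusted p = 0.018, limma). Its C24 arrays were at -0.69 and -2.32. PUB18 was higher by 2.68. The ABI5-binding proteins AFP3 (3.82), AFP1 (2.04) and AFP2 (1.52) were higher, while a second AFP1 probe (2.60) did not pass the test. The related ligases PUB22 and PUB23 were not called and had differences of -0.11 and -0.39.

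**Figure D3:**
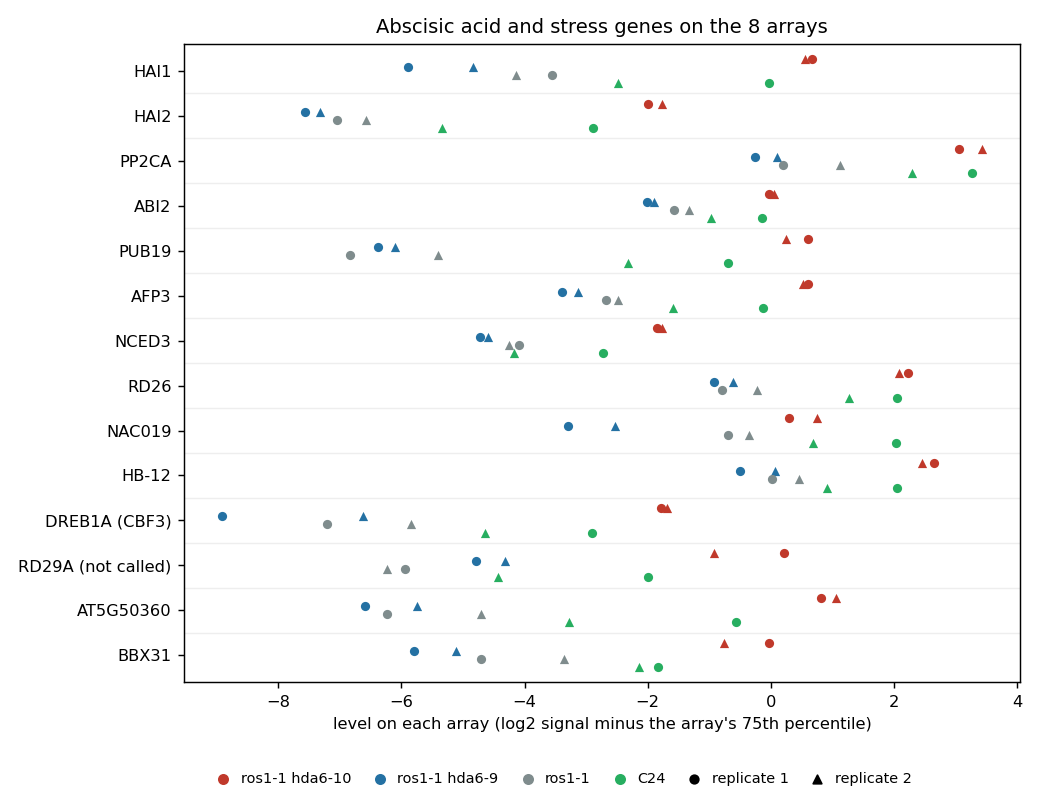
Levels of 14 ABA and stress genes on each of the 8 arrays (x axis, log2 signal minus the 75th percentile, colour by genotype, circle for replicate 1 and triangle for replicate 2). For each gene both hda6-10 arrays lie above both hda6-9 arrays, and C24 replicate 1 lies above C24 replicate 2.

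The upstream regulators of the cold response also differed. Of 15 genes of the CBF pathway, 6 were higher (1.42% of all tested genes) and 1 was lower (0.606% of all) in hda6-10, with a median of 1.45. DREB1A, also called CBF3, was at -1.78 and -1.69 in hda6-10 and -8.91 and -6.62 in hda6-9, of which 1 array was well above background, and the difference was 6.04 (SE 0.939, adjusted p = 0.034, limma). CBF1 was at -4.36 and -5.44 against -8.37 and -7.73, which were not well above background, and its fitted fold was 8.89. Under another background correction (normexp, which models the background in place of subtracting it) the difference was 1.40 and the call was lost. CBF2 differed by 4.01 but did not pass the test, and its hda6-9 arrays were at -6.71 and -3.69. DREB2A (1.99), DREB2B (1.59), the zinc finger gene ZAT12 (1.89) and the RCC1-like gene TCF1 (1.95) were higher, and RAV1 fell by 1.55. Without hda6-9 replicate 1 the median of the list was 0.97. Of 17 COR, KIN and dehydrin genes, 2 were higher, against the same 1.42%, with a median of 0.44. ERD10, a dehydrin, was at 3.34 and 3.15 in hda6-10 and 0.55 and 1.15 in hda6-9, and RD29B at -1.31 and -2.24 against -4.02 and -4.46. RD29A, whose promoter drives the luciferase transgene, was at 0.21 and -0.92 in hda6-10, -4.79 and -4.31 in hda6-9 and -5.94 and -6.24 in ros1-1. The groups did not overlap, but the difference of 4.19 missed the threshold (SE 0.807, adjusted p = 0.053, limma). Under normexp the difference of this probe was 3.55 and passed. A dimmer RD29A probe also passed (5.92, adjusted p = 0.018, limma). It was at background in hda6-9, at -10.6 and -10.2, and in ros1-1, so 5.92 is no exact difference. On the processed signal, its fold was at least 14.2 against the lowest signal well above background. COR15A was at -0.68 and -1.28 against -1.03 and -1.56, COR15B differed by 0.06 with 1 hda6-10 spot set aside as an outlier, and RAB18 by 0.15. Of 19 LEA and related genes, 1 was called higher (1.42% of all tested genes), LEA14 with 1.28. It was 1 of 9 more than 2-fold higher, where 4.3% of all tested genes were. In the other direction 1 was more than 2-fold lower (1.64% of all). LEA7, which was not called, was at 1.17 and -1.71 in hda6-10 and -3.24 and -5.31 in hda6-9. Of the proline and raffinose genes, P5CS1, which makes proline, was higher, with differences of 1.96 and 4.45 on its 2 probes.

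Further genes called higher belong to families that were looked at after their values had been seen. The heat stress factors HSFA6A (3.91), HSFA6B (3.22) and HSFC1 (3.90) were higher. Of 9 tested genes named HSFA, 2 were higher and none lower, where 1.42% of all tested genes were higher. None of 17 heat shock protein genes was called, though 4 were more than 2-fold higher (4.3% of all tested genes) and none was more than 2-fold lower (1.64% of all). Their median was near 0, and between -0.12 and 0.46 without 1 array of an allele. HSFC1 was at 2.05 and 2.22 in hda6-10 and -2.01 and -1.52 in hda6-9. The B-box genes BBX31 (5.07), BBX29 (2.70), BBX32 (2.14) and BBX30 (1.65), which encode small zinc finger proteins of light signalling, were higher and BBX28 fell by 1.29. Of 16 tested genes named BBX, these were the 5 called, where 1.42% of all tested genes were higher and 0.606% lower. BBX31 was at -0.03 and -0.76 in hda6-10, -5.80 and -5.12 in hda6-9 and -4.71 and -3.36 in ros1-1, and all 4 arrays of the last 2 genotypes lay below C24. The calcium-binding caleosin RD20 (3.45), the factors MYB74 (3.39), MYB112 (2.44), MYB96 (1.51) and GBF3 (1.98), and the ABA-related ubiquitin ligases RHA2A (1.56) and RHA2B (1.61) were higher too. Of 96 tested genes named MYB, 5 were higher and 1 lower, and of 8 named RHA, 2 were higher and none lower. These counts stand against the same 1.42% and 0.606% of all tested genes. Among the 12 largest rises of genes seen on all 4 arrays were AT5G50360 (7.10), AT4G33467 (6.80), the F-box gene EDL3 (4.45), which promotes ABA responses, AT3G48240 (4.29), AT4G21930 (4.26), AT5G15500 (4.07), TSPO (4.07), an ABA-induced membrane protein, and AT1G49450 (4.05). AT5G50360 was at 0.81 and 1.06 in hda6-10, -6.59 and -5.74 in hda6-9, -6.24 and -4.71 in ros1-1 and -0.57 and -3.28 in C24. The ros1-1 arrays lay with hda6-9, and the C24 arrays between the alleles.

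Of 30 SAUR genes tested, which are early auxin-response genes that promote cell expansion, 6 were lower in hda6-10 and none higher, where 0.606% of all tested genes were lower. By the change alone 10 were more than 2-fold lower, where 1.64% of all tested genes were, and 1 was more than 2-fold higher (4.3% of all). The median was -0.73. Both hda6-10 arrays were below both hda6-9 arrays in 23 of the 30, a pattern seen in 30.2% of all tested genes. SAUR1 (AT4G34770) was at -1.90 and -1.41 in hda6-10 and 1.86 and 1.67 in hda6-9, a difference of -3.42 (SE 0.358, adjusted p = 0.021, limma). Its ros1-1 arrays at 1.07 and 0.38 and its C24 arrays at -1.04 and -0.21 lay between the alleles. SAUR57 (AT3G53250) fell by 3.00, SAUR5 (AT4G34810) by 2.31, SAUR68 (AT1G29490) by 1.66, SAUR3 (AT4G34790) by 1.64 and SAUR71 (AT1G56150) by 1.59. AT4G34780, which the annotation also names SAUR2, fell by 2.72. Under normexp, the differences of SAUR57 (AT3G53250, -0.76), SAUR68 (AT1G29490, -0.12) and AT4G34780 (-0.29) shrank and their calls were lost. Over all 64 tested genes that the annotation names SAUR, 11 were lower, where 0.606% of all tested genes were. Another 2 were higher, where 1.42% of all were, AT3G61900 by 1.82 and AT5G10990 by 1.43. Signal from near-identical SAUR copies on 1 probe cannot be told apart. Among Aux/IAA and GH3 genes 1 of 15 was called lower, against the same 0.606%, and none higher. This was the repressor gene IAA29, at -3.36 and -2.45 in hda6-10 and -0.68 and -1.01 in hda6-9.

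The organ size genes ARGOS and ARL, which promote growth, were among the largest falls. ARGOS was at -2.99 and -2.53 in hda6-10, -0.23 and -0.14 in hda6-9, -1.05 and -1.13 in ros1-1 and -1.90 and -1.62 in C24. The hda6-10 arrays were lowest and the hda6-9 arrays highest of all genotypes, and the alleles differed by -2.57 (SE 0.176, adjusted p = 0.014, limma). ARL was at 0.47 and 0.90 against 2.86 and 2.94, a difference of -2.22. Of 27 expansins and xyloglucan hydrolases, which loosen cell walls, 4 were lower, where 0.606% of all tested genes were, and none was higher. These were all xyloglucan genes, XTH33 (-1.29), XTH9 (-1.24), XTH16 (-1.11) and TCH4 (-1.02). TCH4 was nearest to the 2-fold limit, and over the alternative settings its difference lay between -1.67 and -0.82. XTH14 (2.23) and EXPA2 (1.22) lay above 2-fold on the other side without passing the test. The expansins were not called, and EXPA1 was at 3.74 and 3.76 in hda6-10 and 3.00 and 2.86 in hda6-9. Other genes called lower, outside the lists, were EXO (-2.13), a brassinosteroid-response gene of growth, BEE3 (-1.89), a factor of the same hormone, HAT1 (-1.57), the phytochrome partner PKS4 (-1.89), and the arabinogalactan proteins AGP17 (-1.52), AGP16 (-1.22) and AGP18 (-1.22). Of 28 tested genes named AGP these 3 were the called ones, where 0.606% of all tested genes were lower. Another 2 were more than 2-fold higher, up to 3.92, without passing the test.

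**Figure D4:**
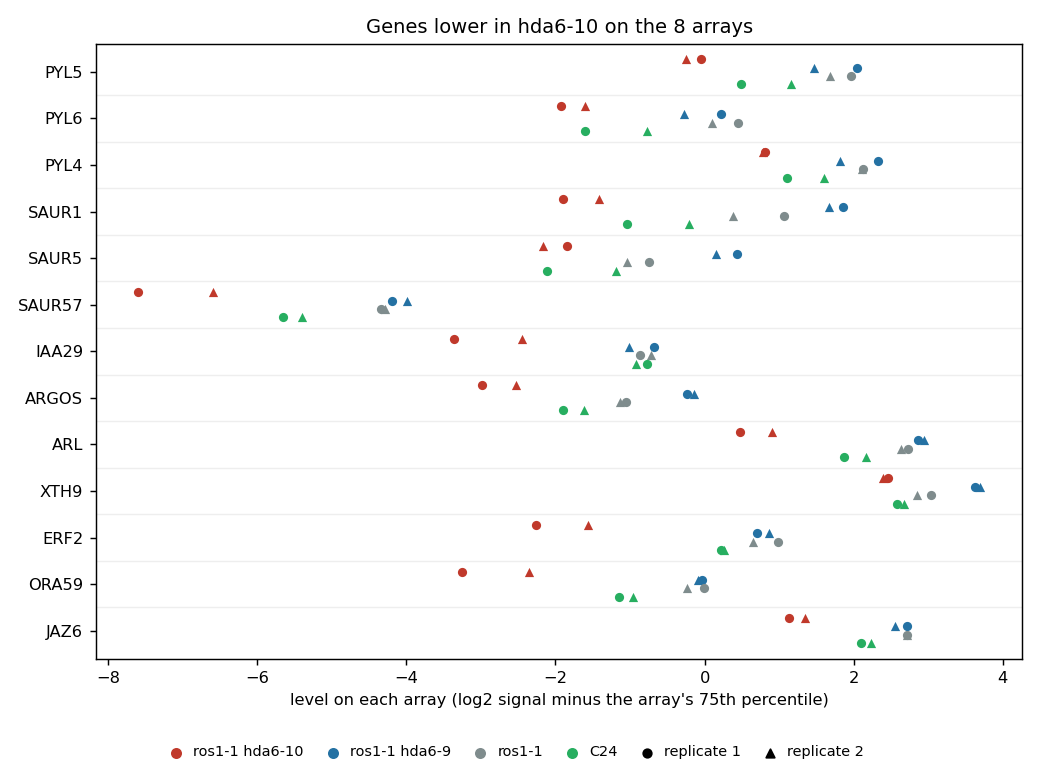
Levels of 13 genes called lower in hda6-10 on each of the 8 arrays (x axis, log2 signal minus the 75th percentile, colour by genotype, circle for replicate 1 and triangle for replicate 2). Both hda6-10 arrays lie below both hda6-9 arrays and both ros1-1 arrays for each gene.

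Ethylene and jasmonate factors were lower in part. ORA59, which joins both hormones in defence, was at -3.26 and -2.36 in hda6-10 and -0.04 and -0.09 in hda6-9, a difference of -2.74 (SE 0.287, adjusted p = 0.021, limma). ERF2 was at -2.26 and -1.56 against 0.70 and 0.87, a difference of -2.69. For both genes the hda6-10 arrays were the lowest of all 8. ERF-1 fell by 1.33, and it was higher in ros1-1, at 2.78 and 2.27, than in either allele. These 2 ERF genes were the called members of 16 genes of ethylene synthesis and response, where 0.606% of all tested genes were lower. None of the 16 was higher. Outside that list ERF53 (3.75), ERF8 (2.08), ERF4 (2.03) and ERF12 (1.46), of which ERF8 and ERF4 are repressors, were higher in hda6-10. This family was looked at after its values had been seen. Of 24 tested genes named ERF, 4 were higher and 3 lower, where 1.42% of all tested genes were higher and 0.606% lower. The AP2-type factor gene DREB26 and the gene AT1G77640 fell by 2.32 and 2.68. Among 12 JAZ repressors of jasmonate signalling JAZ6 was lower (-1.40) and JAZ3 higher (1.23), and of 22 other jasmonate genes the factor MYC2 was higher (1.54). Of all tested genes, 1.42% were higher and 0.606% lower. The hypoxia-response factor ERF73, also called HRE1, fell by 1.26.

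Of 13 flowering-time regulators, 2 were higher in hda6-10, FT and AGL20, and none was lower, where 1.42% and 0.606% of all tested genes were. FT, the mobile flowering signal, was at -5.51 and -5.34 in hda6-10, -7.15 and -7.84 in hda6-9, -4.46 and -4.19 in ros1-1 and -5.51 and -5.65 in C24, a difference between the alleles of 2.07 (SE 0.236, adjusted p = 0.024, limma). AGL20, also called SOC1, which acts after FT, was at -0.30 and 0.33 against -1.78 and -1.92, with ros1-1 at 1.25 and 1.22. For both genes hda6-9 was the lowest of the 4 genotypes and hda6-10 lay below ros1-1. Outside that list, TEM1 and RAV2, both repressors of FT, were lower in hda6-10 (-2.01 and -2.03). TEM1 was at 0.58 and 0.84 in hda6-10 and 2.88 and 2.56 in hda6-9. SEP1, a floral identity gene that is also outside the list, was higher by 2.19, and its hda6-10 arrays at -3.47 and -3.54 were near ros1-1 at -3.80 and -3.50. The DOF factor genes CDF6 (AT1G26790, 2.96) and CDF1 (1.14), which repress flowering genes, were higher, as were the clock-related genes RVE2 (1.57) and RVE1 (1.49), of which RVE1 has a second probe (1.5) that did not pass the test. These 2 were the called members of 20 clock genes, against the same 1.42% of all tested genes that were higher.

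Among genes of DNA methylation, DRM1 and DML3 were called between the alleles, where 1.42% of all tested genes were higher and 0.606% lower. Of 13 genes of maintenance methylation and histone H3K9 methylation none was called by limma, and the median was -0.29 with 1 gene above 0. MET1, the maintenance methyltransferase, was at 0.13 and -0.04 in hda6-10 and 0.29 and 0.51 in hda6-9, a difference of -0.36 (adjusted p = 0.18, limma). Of 20 genes of RNA-directed methylation, DRM1 was called lower (-1.02), at -7.21 and -6.95 in hda6-10 and -6.05 and -6.06 in hda6-9, and its direction turned under another background correction (0.13). Of 8 genes of active demethylation the glycosylase gene DML3 was called, at -4.15 and -4.13 in hda6-10 and -5.30 and -5.40 in hda6-9, where ros1-1 was at -4.20 and -4.03. ROS1, listed as DML1, overlapped between the alleles and differed by -0.11.

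Several genes known to be silenced by methylation or by HDA6 were well above background in both alleles. SDC was at -0.96 and -0.60 in hda6-10 and -0.25 and -0.02 in hda6-9, while ros1-1 was at -10.7 and -10.9, which is background. AT5G41660, a target of HDA6, was at -2.11 and -2.48 against -2.37 and -2.44, with ros1-1 at -10.1 and -10.6. QQS was at 0.97 and 1.16 against 0.79 and 1.08, with ros1-1 at -7.72 and -8.25. None of these was called between the alleles, and the differences were -0.65 (SE 0.545), 0.11 (SE 0.202) and 0.13 (SE 0.263). Of the 9 tested genes listed as silenced by methylation, FIS2, a Polycomb gene of the seed, was the one called. It was lower in hda6-10 (-3.05), where 0.606% of all tested genes were lower, though higher under another background correction (0.41).

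A smaller group was well above background in only 1 of the alleles. The folds given are bounds against the lowest signal well above background and hold for the processed signal only. In hda6-10, AT5G05220 was at -2.27 and -4.80 against -10.7 and -9.73, at least 27.2-fold higher. It was also well above background on both C24 arrays, at -5.94 and -8.49, and on 1 ros1-1 array. AT5G45630 and AT1G42980 were at least 12.9-fold and 10.8-fold higher, although both were also well above background in ros1-1 and C24. Under normexp AT5G05220 (2.69) and AT5G45630 (1.74) were no longer called. SCRL24 was at -3.80 on hda6-10 replicate 1 and at background on the other arrays, with the spot of hda6-10 replicate 2 set aside as an outlier, so it rests on 1 array. In hda6-9, AT3G17400 was at -6.21 and -6.24 against -8.57 and -9.51, 4.36-fold higher by the bound. Under normexp the difference was -0.03, and C24, at -5.72 and -7.06, was also well above background. LSH8 (2.65-fold by the bound), FIS2 (2.37), AT1G24000 (2.18) and TT2 (2.18, equal to its fitted fold) were also seen in hda6-9 alone of the alleles. All lay close to background. Under another background correction these 4 turned direction, with 0.41, 0.41, 0.45 and 0.44, so no minimum fold holds for them. Of the called probes, 121 higher and 26 lower had no gene match. The one with the lowest adjusted p was chosen after its values were seen, and its target is an expressed sequence tag, cDNA or assembled transcript. It was at -1.06 and -0.56 in hda6-10 and -8.14 and -8.03 in hda6-9, and at background in ros1-1 and C24, a difference of 7.28 (SE 0.179, adjusted p = 0.00041, limma).

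Several stress and nutrient lists held no called member. By limma, at the adjusted threshold, none of 23 flavonoid, 18 salicylic acid, 16 iron and phosphate, 22 light-harvesting and Rubisco, 19 aquaporin and 11 senescence genes was called. Of all tested genes 1.42% were higher and 0.606% lower, so having no called member does not set lists of this size apart. Some of their members had large differences and a wide spread. The iron-deficiency factors BHLH38 (-2.46), BHLH39 (-2.74), BHLH100 (-2.79) and BHLH101 (-3.16) had values below 0 and did not pass the test, and BHLH101 was at -1.5 and -3.17 in hda6-10 against 1.18 and 0.48 in hda6-9. The phosphate-starvation RNA IPS1 was at -2.04 and -0.22 against -3.15 and -3.58.

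**Figure D5:**
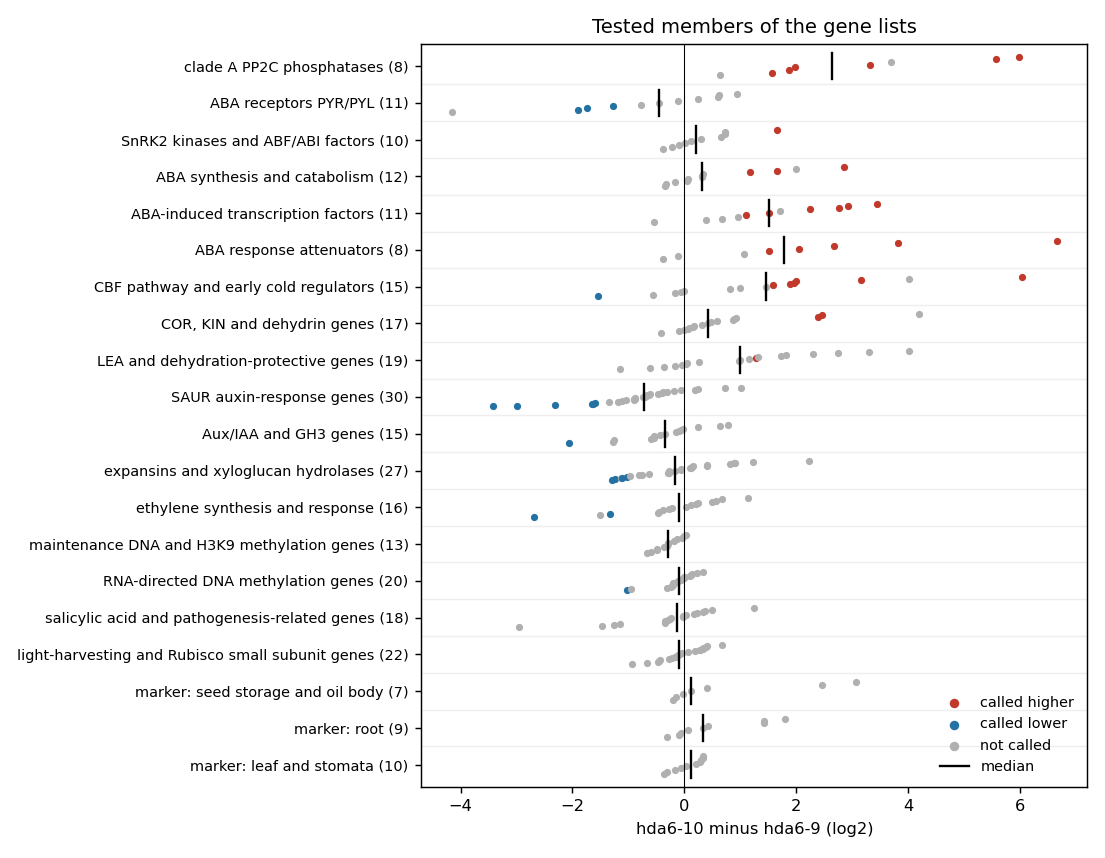
Log2 differences, hda6-10 minus hda6-9, of the tested members of 20 gene lists (x axis), with 1 point for each gene, the number tested in brackets and a bar at the median. The PP2C, ABA-induced factor, attenuator and CBF lists lie mostly above 0, and the SAUR list mostly below.

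Set beside the other genotypes, the called genes gave a different picture against ros1-1 than against C24. Of the 305 higher genes, the ros1-1 mean was nearer to hda6-9 than to hda6-10 in 237 (77.7%), and of the 130 lower genes in 89 (68.5%), where it was nearer to hda6-9 in 45.2% of all tested genes. By mean levels, 168 of the higher genes were more than 2-fold from ros1-1 in hda6-10 only, 36 in hda6-9 only and 53 in both. Of the lower genes these counts were 63, 20 and 12, and of all 21442 tested genes they were 787, 807 and 1317. The C24 mean was nearer to hda6-9 in 114 of the higher genes (37.4%) and 59 of the lower genes (45.4%), where it was so in 43.8% of all tested genes. It lay between the alleles in 248 of the higher genes, 101 of the lower genes and 6274 of all tested genes. The 2 C24 arrays did not give the higher genes the same level. C24 replicate 1 was above C24 replicate 2 in 247 of the 305 (81.0%), against 45.6% of all tested genes, and the arrays were more than 2-fold apart in 41 (13.4%) against 3.59%. Replicate 1 was above replicate 2 in 26.9% of the higher genes in hda6-9 and 25.7% in ros1-1, against 45.7% and 50.6% of all tested genes, and in 58.1% in hda6-10, against 56.6%. The replicates were more than 2-fold apart in 2.97% of the higher genes in hda6-10, 3.61% in hda6-9 and 5.92% in ros1-1. The part of these differences between replicates in the calls was not tested. Relative to the ros1-1 array on the same slide, hda6-10 minus hda6-9 replicate 1 passed 2-fold in the direction of the call in 288 of 302 higher genes with a value and 119 of 130 lower genes, and in the direction of the fitted difference in 1990 of 21393 tested genes. These values reuse 3 of the 4 arrays that chose the genes, so they are no separate support.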

How the data were processed

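RNA of 12-day-old seedlings was labelled with Cy3 and hybridized to 8 one-colour Agilent Arabidopsis arrays, 2 for each of 4 genotypes. The values the authors deposited are intensities of the scanner output, made with Feature Extraction 10.7.1.1, whose processed signal is background-subtracted. A series-wide table of the deposited intensity values, background-subtracted and not normalized between arrays, was used as an alternative. The labels give 2 arrays for each genotype, whereas the study's methods state 4 biological replicates per sample. Nothing in the labels ties an array to its own plants, so p-values measure the spread between these arrays, which may be technical.

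Outlier spots were left out, each array's 75th percentile was subtracted from the log2 processed signal, and the spots of each probe were averaged. Testing was limited to probes that the scanner software marked well above background on every array of 1 or more genotypes. limma 3.58.1 in R 4.3.3 fitted a mean for each genotype over 8 arrays (residual degrees of freedom 4, prior 1.8), and p-values were adjusted by Benjamini-Hochberg. With 2 arrays the number of arrays limits the precision. The fit was also run on data simulated with independent noise and no slide effect. That run cannot speak to the slides, which the alleles do not share. Where a probe was not well above background on both arrays of an allele, a bound on the fold against the lowest signal well above background is given. This bound holds for the processed signal only. Where both values lay above that lowest signal, it equals the fitted fold.

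Probes were joined to genes through RefSeq accessions of the TAIR10.1 annotation, which served for names and gene order only, as the array design is of another build (34285 probes matched). A gene was read by its probe with the highest mean level. Named genes were the 12 largest rises and falls called and seen on all 4 allele arrays, the 5 highest bounds in each direction, up to 4 called members of each list (the brightest member where none was called) and HDA6, HDA7, HDA9, RD29A, SDC, AT5G41660, MET1 and ROS1, with other genes beside them given as members of lists or as chosen after their values were seen. The comparison, the members and the lists were chosen with earlier results of these data known. Of 32 named genes with over 1 tested probe, the probes of 4 disagreed on the call. Promoter and probe sequences were not used here. Alternatives covered background correction, scaling, filters, outliers, probe summary, slide, replicate number and each array left out.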

Additional observations from a re-analysis of the deposited data

How the results depend on the processing

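The counts of 510 higher and 191 lower probes were 540 and 200 with the shift to the median, 505 and 258 with quantile normalization, 513 and 184 from the value table, 414 and 186 with the filter on all 4 arrays of the alleles, 495 and 185 with outlier spots kept and 501 and 186 with slide as a random block. With no filter on dim probes they were 351 and 150, with 310 and 141 of the original calls among them, and 19 of the 75 called named genes were lost. Normexp background correction (offset 50) of median signals was added after seeing the data, since the planned version on mean spot signals was not run, and gave 363 and 116. The promoter motif counts were not run either. It turned the direction of LSH8 (0.41), AT1G24000 (0.45), FIS2 (0.41), DRM1 (0.13) and TT2 (0.44), all near background, and 10 more of the 75 called named genes lost their call, among them AT3G17400 (-0.03) and AT1G29490 (-0.12). The added correction moved the median of all probes to 0.09, from -0.02. With 1 value for each gene 304 and 127 genes were called, and with only the 4 arrays of the alleles 159 and 35 probes. When slide entered as a fixed block, limma called 0 and 0, and 1561 and 606 before adjustment. Leaving out 1 array gave 2 to 395 higher and 2 to 152 lower probes, up to 321 and 123 where the count moved by over 1.5 times. An adjusted p with no minimum change gave 869 and 496, the p before adjustment with a 2-fold change 1124 and 367, and the change alone 1487 and 530.

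The replicate numbers were not taken to pair the arrays, as the labels state no shared batch. The correlation of the deviations of same-numbered arrays was 0.06 between the alleles and from -0.38 to 0.06 over all pairs of genotypes. With a replicate block 18 probes were higher and 8 lower. Of 75 called named genes, 4 stayed called under the block, none with slide fixed, and 2 to 16 without 1 array of an allele, and apart from the 5 genes named above each kept its direction. The number of arrays limits the precision, and between 77.2% and 80.6% of spots were well above background.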
